A study of Homo sapiens with 12 samples.

Results

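Ribosome biogenesis factors are the nuclear and nucleolar proteins that make ribosomal RNA and fit it with ribosomal proteins. They were followed here as 40 named genes of the 58735 genes in the count table. The list was chosen by function, with earlier results of these data known, and falls into 9 roles: RNA polymerase I transcription, the cores of the box C/D and box H/ACA snoRNPs, nucleolar RNA chaperones, the PeBoW complex, the PELP1-LAS1L (Rix1) complex, other 60S assembly factors, the small-subunit (SSU) processome and late 40S maturation. All 40 had enough counts to be tested, among 16891 tested genes in all.

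The transcripts were counted by RNA-seq in ES2 cells with an inducible FDX2 knockout (FDX2-iKO). ES2 is a human ovarian carcinoma line. The cells carry a genome-editing-resistant (GER) FDX2-HA transgene that is transcribed with doxycycline (Doxy), while their own FDX2 gene, which encodes a mitochondrial ferredoxin needed to build iron-sulfur clusters, was knocked out by genome editing. Removing Doxy therefore withdraws FDX2, and all 4 conditions share the transgene and the knockout. The conditions were 20% O2 + Doxy and 20% O2 wo Doxy (6 days at 20% O2), and 3% O2 + Doxy and 3% O2 wo Doxy (4 days at 20% O2 followed by 3 days at 3% O2), with 3 libraries in each and 12 in all. Knockout lines were isolated by limiting dilution, so the line can be the progeny of a single edited cell, and Doxy itself was present only where FDX2 was expressed, so that the drug and FDX2 cannot be told apart. The oxygen comparison likewise cannot be told apart from the length and order of the culture.

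Ribosome assembly starts in the nucleolus, where RNA polymerase I transcribes a long precursor that holds the 18S, 5.8S and 28S ribosomal RNAs. Box C/D and box H/ACA snoRNPs modify the precursor, the SSU processome folds and cuts it into pre-40S particles, and a succession of 60S factors builds the large subunit before both are exported. The pathway is among the most costly of a growing cell, is transcribed under the influence of MYC, and is closely tied to cell proliferation.

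Promoter windows of the members were read from RefSeq sequence (GRCh38.p14), from 250 bases before to 50 bases after the annotated start of the gene, and searched on both strands for CACGTG, the palindromic E-box that MYC binds with MAX. Windows of NOP58, NOLC1, BOP1, RRS1 and RRP12 were not read, so BOP1, the largest decrease after FDX2 withdrawal at 20% O2, is not shown. The first 4 windows below belong to NOP56, NCL and NPM1, among the larger decreases, and to RRN3, the largest increase, and hold no match. MRTO4 and NOP10 were added after their values were seen, to show a window with 1 match and a window with 2, and the match is in capitals.
NOP56 (chr20:2652382-2652681, plus strand): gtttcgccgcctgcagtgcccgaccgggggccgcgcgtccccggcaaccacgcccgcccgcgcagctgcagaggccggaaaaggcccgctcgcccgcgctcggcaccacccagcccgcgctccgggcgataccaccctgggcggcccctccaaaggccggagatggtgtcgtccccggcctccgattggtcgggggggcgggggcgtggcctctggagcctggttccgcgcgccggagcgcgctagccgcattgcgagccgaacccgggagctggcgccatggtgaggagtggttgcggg
NCL (chr2:231464435-231464734, minus strand): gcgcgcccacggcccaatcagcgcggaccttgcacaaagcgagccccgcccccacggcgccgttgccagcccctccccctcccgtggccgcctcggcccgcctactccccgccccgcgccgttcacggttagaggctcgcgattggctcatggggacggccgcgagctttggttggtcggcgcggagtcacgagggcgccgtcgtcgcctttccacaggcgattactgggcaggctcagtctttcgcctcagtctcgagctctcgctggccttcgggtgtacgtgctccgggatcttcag
NPM1 (chr5:171387599-171387898, plus strand): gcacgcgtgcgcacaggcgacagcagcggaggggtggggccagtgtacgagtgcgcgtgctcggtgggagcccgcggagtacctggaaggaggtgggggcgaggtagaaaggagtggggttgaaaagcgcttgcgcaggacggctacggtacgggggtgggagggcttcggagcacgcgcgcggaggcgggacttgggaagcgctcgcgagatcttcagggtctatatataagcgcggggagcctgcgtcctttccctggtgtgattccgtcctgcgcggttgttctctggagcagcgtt
RRN3 (chr16:15094286-15094585, minus strand): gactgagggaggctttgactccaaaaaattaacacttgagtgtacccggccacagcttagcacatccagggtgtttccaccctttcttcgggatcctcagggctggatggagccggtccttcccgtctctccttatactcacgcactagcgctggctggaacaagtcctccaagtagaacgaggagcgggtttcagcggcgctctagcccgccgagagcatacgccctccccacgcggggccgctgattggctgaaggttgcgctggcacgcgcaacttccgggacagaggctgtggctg
MRTO4 (chr1:19251555-19251854, plus strand): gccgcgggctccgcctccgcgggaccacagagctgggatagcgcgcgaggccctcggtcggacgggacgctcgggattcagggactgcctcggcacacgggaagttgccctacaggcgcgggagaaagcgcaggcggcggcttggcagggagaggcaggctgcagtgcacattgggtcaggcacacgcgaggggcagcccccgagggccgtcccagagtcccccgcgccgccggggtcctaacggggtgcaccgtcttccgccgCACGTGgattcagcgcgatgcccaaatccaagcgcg
NOP10 (chr15:34343087-34343386, minus strand): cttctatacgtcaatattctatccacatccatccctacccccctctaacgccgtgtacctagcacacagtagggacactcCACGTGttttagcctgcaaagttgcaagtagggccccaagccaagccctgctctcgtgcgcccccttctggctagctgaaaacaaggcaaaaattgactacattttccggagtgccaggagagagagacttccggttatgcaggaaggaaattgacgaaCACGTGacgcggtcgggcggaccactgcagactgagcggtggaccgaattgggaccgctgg

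Windows were found for 35 of the 40 members, and 13 of these (37.1%) held the letters CACGTG. The share was 7.26% over all 35116 windows of the same length, 8.34% over 22198 windows of protein-coding genes, and 10.04% over the 8097 protein-coding windows whose GC content lay between the quartiles of the member windows (57.0% and 68.7%). It was 4.76% (3 of 63) in the cytosolic ribosomal protein genes. Among the members, the match was about as frequent whether or not the gene fell at 20% O2, as described below: it was in 8 of the 22 windows of members that fell (36.4%) and in 5 of the 13 other windows (38.5%). A match is a description of the sequence, and binding was not measured.

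The libraries held between 24958386 and 34313637 counts. FDX2 itself had 2 to 13 counts in every library, too few to test, so that its withdrawal could not be checked from this table. CA9, a carbonic anhydrase induced by hypoxia, had 2 to 9 counts in the 20% O2 libraries and 1145 to 2699 in the 3% O2 libraries, in the direction of the oxygen labels. The mesenchymal and carcinoma markers VIM, KRT8 and KRT18 were abundant, and PAX8 was at 5.59 to 19.3 CPM (counts scaled for library size, the unit of all levels below). EPCAM, CDH1 and KRT19 had at most 0.119 CPM, and MUC16 had no count. The leukocyte markers PTPRC, CD3E, CD14, CD68 and MS4A1 reached at most 0.282 CPM. Among endothelial and fibroblast markers, PECAM1, VWF, DCN and LUM were at most at 0.198 CPM, although CDH5 (22.1 to 51.4 CPM), KDR (1.66 to 3.02 CPM) and COL1A1 (1069 to 2447 CPM) were present. Counts of 3 libraries leaned toward GC-rich transcripts relative to the mean of their own condition. These were 20% O2 + Doxy replicate 1, 3% O2 + Doxy replicate 3 and 3% O2 wo Doxy replicate 2. Their lean was 0.39, 0.37 and 0.21 on the log2 scale between the highest and the lowest quartile of GC content. In the other 9 it was -0.27 to 0.06. A lean of a whole condition does not show in these values. The 10 members among the GC-rich quartile were measured less precisely in the comparison at 20% O2 (median standard error 0.122, against 0.0633 in the 30 others). For 20% O2 + Doxy replicates 1 and 2 the submitters report that a read file was lost in transfer while the counts were kept. Results that rest on these libraries are given below with and without them.

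The summed level of the 40 members, in CPM after TMM scaling (a factor per library under which most genes keep their level), was 11074 ± 145 (SD, n = 3) in 20% O2 + Doxy and 8229 ± 105 in 20% O2 wo Doxy. At 3% O2 it was 10544 ± 56.9 with Doxy and 9434 ± 291 without. The libraries of the 4 conditions did not overlap, and the lowest sum, 8109 CPM, and the highest, 11240 CPM, were both found at 20% O2. NPM1 and NCL supplied 43.0% of the sum with Doxy and 38.8% without Doxy at 20% O2. The 38 others added up to 6312 ± 187 and 5037 ± 67.1 CPM at 20% O2, and to 5987 ± 129 and 5407 ± 59.0 CPM at 3% O2, so the order of the conditions was not set by these abundant transcripts alone. In bulk samples scaled to a common total, fewer cells of a kind and less RNA per cell cannot be told apart.

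**Figure D1:**
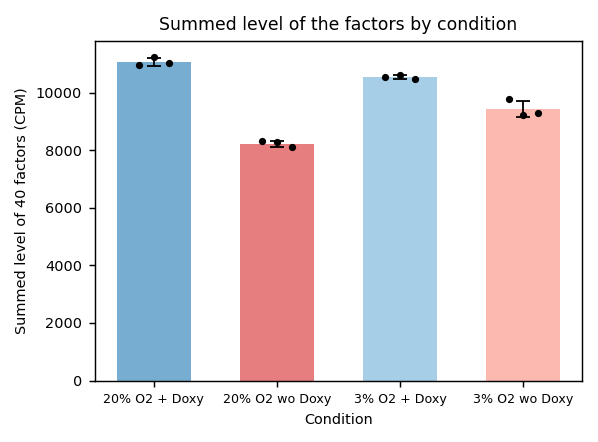
Summed level of the 40 ribosome biogenesis factors in CPM (vertical axis) in the 4 conditions; bars give the mean and error bars the SD of 3 libraries, shown as points. The 20% O2 wo Doxy libraries, between 8109 and 8309 CPM, lie below all others.

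Levels between genes were compared per kilobase (kb) of exon. NPM1 (616 CPM per kb, mean of 12 libraries) and NCL (257), a pair of abundant nucleolar RNA chaperones, came first, followed by NOP10 (132), the smallest subunit of the H/ACA core, and NOP14 (102), a scaffold of the SSU processome. NOL9, a polynucleotide kinase of 60S maturation, and UTP15 were at 8.50 and 7.44 CPM per kb. NOP2, a 28S rRNA methyltransferase, stood at 0.367 CPM per kb with only 38 to 66 counts per library. Of its exonic sequence, 54.4% is shared on the same strand with ENSG00000285238, which had no count in any library, so its low value is uncertain and is not read as a low transcript level.

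At 20% O2, the transcripts of most of these factors were lower after withdrawal of FDX2. Of the 40 members, 26 fell and 1 rose at a Benjamini-Hochberg adjusted p under 0.05 (edgeR quasi-likelihood test over all tested genes), while over all 16891 genes 17.7% fell and 17.6% rose. The members' median log2 fold change was -0.34, against 0.01 for all tested genes, and 38 of the 40 values were below 0. In 28 members every library without Doxy was below every library with Doxy, and in 1 every one was above; the same held for 25.8% and 26.5% of all genes. The changes were moderate, since only 3 of the decreases (NOP56, NCL and BOP1) reached 1.5-fold. With 20% O2 + Doxy replicates 1 and 2 both left out, the members' median was -0.27. That fit leaves 1 library in the condition, so only its fold changes are given. They are printed in the paragraphs on each role for the members not called in it. With each library's GC trend removed, 28 fell and 1 rose (20.3% and 26.1% of all genes). The members' median was then -0.28, against 0.072 for all tested genes. The 3 GC-leaning libraries left out together gave 29 and 1 (22.8% and 19.7% of all genes).

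**Figure D2:**
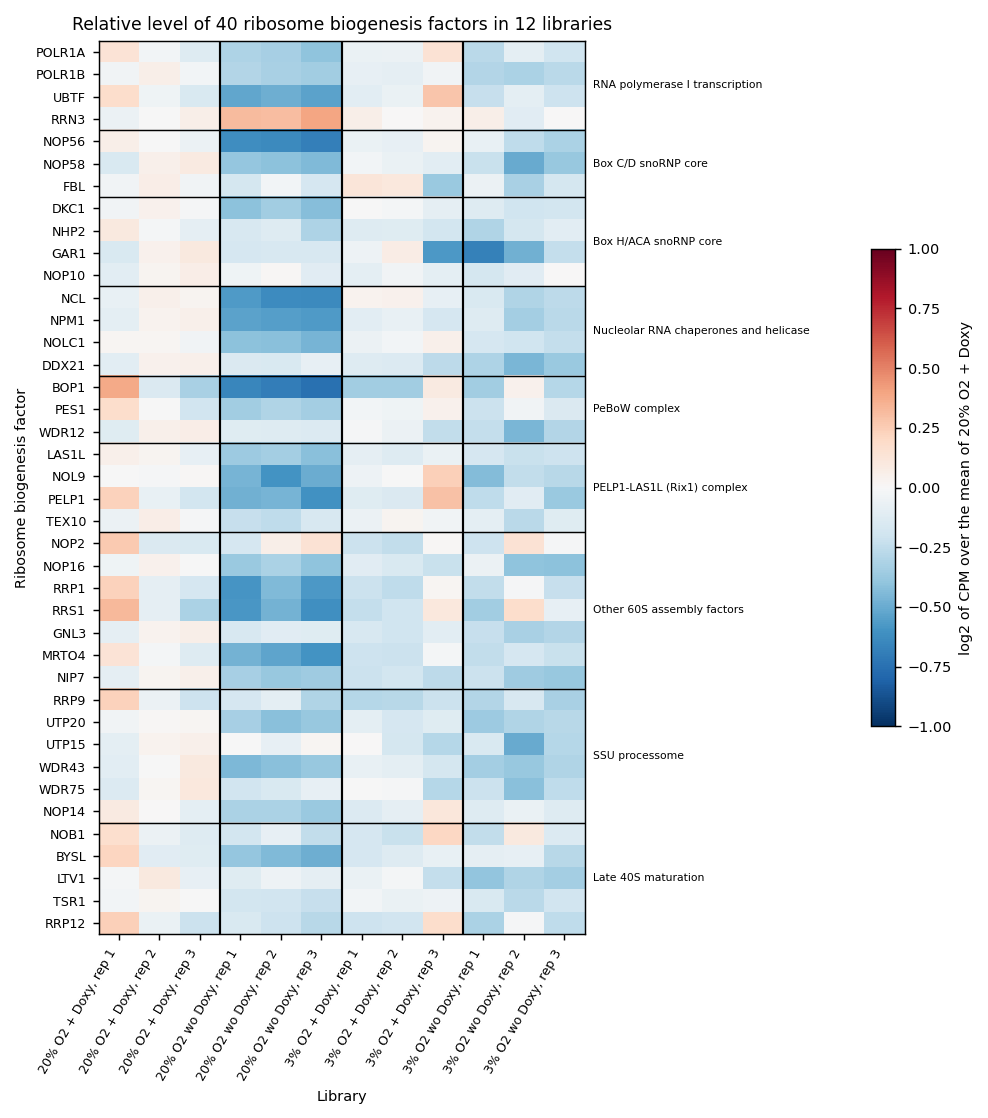
Relative level of each ribosome biogenesis factor (rows, ordered by role) in each of the 12 libraries (columns), as the log2 ratio of its CPM to the mean of 20% O2 + Doxy; blue is lower and red is higher. The 3 libraries of 20% O2 wo Doxy form the deepest blue block, RRN3 is the red exception, and the GC-leaning libraries show as paler or redder columns in rows such as BOP1, RRS1 and RRP12.

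The RNA polymerase I genes did not move one way. POLR1A and POLR1B, the catalytic subunits of the enzyme, and UBTF, the factor that opens ribosomal DNA for transcription, fell, whereas RRN3, which joins the polymerase to its promoter, rose. POLR1A was at 211, 188 and 176 CPM with Doxy and 154, 152 and 145 CPM without. POLR1B was at 88.1, 94.1 and 88.6 CPM with Doxy and 73.8, 71.9 and 70.8 CPM without. UBTF was at 187, 159.7 and 149 CPM with Doxy, where replicate 1 was the highest, and 115, 118 and 114 CPM without. In all 3 genes the groups were apart, with log2 fold changes of -0.35 ± 0.0808 (SE), -0.32 ± 0.0456 and -0.52 ± 0.106 and edgeR adjusted p of 0.00636, 0.000287 and 0.00323. RRN3 was at 54.1, 56.3 and 58.5 CPM with Doxy and 70.0, 69.8 and 74.1 CPM without, so that every library without Doxy was higher, by 0.34 ± 0.0563 on the log2 scale (edgeR adjusted p = 0.000837). It was the only member to rise. Without 20% O2 + Doxy replicates 1 and 2 the changes of POLR1A, UBTF and RRN3 were -0.24, -0.38 and 0.26. RRN3 has 4 annotated pseudogenes by name, and how reads shared with them were counted is not stated.

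In the box C/D core, the paired scaffold proteins NOP56 and NOP58 fell, and FBL, the fibrillarin methyltransferase that they carry, did not pass the test. NOP56 was at 455, 437 and 422 CPM with Doxy and 285, 281 and 273 CPM without. This was the largest decrease after BOP1, -0.65 ± 0.0633 (edgeR adjusted p = 2.24e-05), and held under all alternatives, the 1.5-fold minimum included. NOP58 was at 209, 241 and 248 CPM with Doxy and 178, 175 and 172 CPM without, a change of -0.41 ± 0.0785 (edgeR adjusted p = 0.00198). FBL was at 222, 239 and 223 CPM with Doxy and 202, 224 and 203 CPM without, and the groups overlapped (-0.12, 95% interval -0.38 to 0.14). NOP56 and NOP58 hold 5 and 4 snoRNA genes in their span, so they are hosts of snoRNAs as well as subunits of the snoRNP.

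In the box H/ACA core, DKC1 and NHP2 fell, and GAR1 and NOP10 did not pass the test. DKC1, the pseudouridine synthase dyskerin, fell from 379.7, 399 and 385 CPM to 292, 305 and 289 CPM, with no overlap and a log2 fold change of -0.40 ± 0.0443 (edgeR adjusted p = 5.74e-05). NHP2, an RNA-binding subunit, was at 152, 140.1 and 134 CPM with Doxy and 127, 129 and 114 CPM without, narrowly apart. Its change, -0.20 ± 0.0696 (edgeR adjusted p = 0.0458), was the weakest call of the list. The call was lost without 20% O2 + Doxy replicate 1 or 2 or without 20% O2 wo Doxy replicate 1 or 3 (adjusted p = 0.106, 0.0847, 0.0666 and 0.115). The change became -0.04 with the GC trend removed and -0.13 without 20% O2 + Doxy replicates 1 and 2 together. NHP2 also shares 27.4% of its exonic sequence with RMND5B on the other strand. GAR1, a subunit that stabilises the enzyme on its RNA target, was at 61.0, 69.8 and 72.6 CPM with Doxy and 60.4, 60.5 and 60.8 CPM without. Its 3 libraries without Doxy were all slightly lower, but the change was within its error (-0.16, 95% interval -0.50 to 0.17). NOP10 was at 70.6, 77.4 and 79.3 CPM with Doxy and 73.6, 76.4 and 69.8 CPM without, and the groups overlapped (-0.05, -0.19 to 0.09).

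Of the abundant RNA chaperones, 3 of 4 fell, and NCL had the smallest adjusted p of the list. NCL (nucleolin), which binds the rRNA precursor, was at 1924, 2099.7 and 2064 CPM with Doxy and 1369, 1316 and 1305 CPM without. NPM1 (nucleophosmin), a main constituent of the granular nucleolus, was at 2557, 2806 and 2835 CPM with Doxy and 1883, 1861 and 1843 CPM without. NOLC1, a chaperone of snoRNPs, was at 407, 407 and 391 CPM with Doxy and 303, 301 and 291 CPM without. In each of these genes the groups were far apart relative to their spread, and the log2 fold changes were -0.61 ± 0.0533, -0.55 ± 0.0570 and -0.43 ± 0.0444 (edgeR adjusted p = 9.56e-06, 3.21e-05 and 3.38e-05). These calls were kept in each alternative without a fold minimum, and that of NCL with it too. NPM1 has 49 pseudogenes by name in the annotation, so part of its reads may align to several places. DDX21, an RNA helicase of the same nucleolar compartment, was at 489, 542 and 545 CPM with Doxy and 477, 472 and 495 CPM without, and the groups overlapped by 1 library (-0.13, -0.26 to 0.0049).

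Of the PeBoW complex, which is needed for processing of 28S and 5.8S rRNA, BOP1 and PES1 fell and WDR12 did not pass. BOP1 had the largest fold change of the list and one of the least precise. It was at 288, 200.4 and 177 CPM with Doxy, where replicate 1 stood well above the others, and 142, 138 and 132 CPM without, giving -0.69 ± 0.180 (edgeR adjusted p = 0.0116). The change was -0.47 without that replicate and -0.36 with the GC trend removed (adjusted p = 0.0276 and 2.5e-05), and -0.39 with replicates 1 and 2 left out together. PES1 was at 263, 233 and 204 CPM with Doxy and 183, 189 and 184 CPM without (-0.33 ± 0.0815, edgeR adjusted p = 0.00903). Its change was -0.15 with the GC trend removed and -0.16 without 20% O2 + Doxy replicates 1 and 2. WDR12 was at 107, 120.0 and 121 CPM with Doxy and 107, 106 and 106 CPM without, and the groups met at the lowest library with Doxy (-0.13, -0.30 to 0.04).

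The 4 members of the PELP1-LAS1L (Rix1) complex, which removes the ITS2 spacer and readies pre-60S particles for export, all fell. LAS1L, the endonuclease that cuts ITS2, was at 127, 124 and 116 CPM with Doxy and 94.8, 96.8 and 91.7 CPM without. NOL9, the kinase that acts on the cut end, was at 69.7, 69.3 and 70.4 CPM with Doxy and 50.5, 46.2 and 49.6 CPM without. PELP1, a scaffold, was at 152, 123 and 114 CPM with Doxy and 92.6, 93.5 and 84.9 CPM without. The groups did not overlap, and the log2 fold changes were -0.37 ± 0.0489, -0.52 ± 0.0790 and -0.52 ± 0.132 (edgeR adjusted p = 0.000175, 0.000486 and 0.0107). TEX10, a further scaffold, was at 82.9, 90.3 and 85.3 CPM with Doxy and 73.5, 72.2 and 77.1 CPM without. Its smaller change, -0.21 ± 0.0590 (edgeR adjusted p = 0.016), was lost without 20% O2 + Doxy replicate 2 or without 20% O2 wo Doxy replicate 1 or 2 (adjusted p = 0.0624, 0.0741 and 0.0602). Without 20% O2 + Doxy replicates 1 and 2, the changes of TEX10 and PELP1 were -0.22 and -0.35.

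Among the 7 other 60S factors, 5 fell. RRP1, a nucleolar protein of early 60S particles, was at 102, 81.7 and 77.4 CPM with Doxy and 57.8, 64.0 and 58.4 CPM without. RRS1, which helps to place the 5S ribonucleoprotein, was at 137, 103 and 87.8 CPM with Doxy and 72.9, 78.6 and 71.6 CPM without. Both genes are GC-rich and were highest in 20% O2 + Doxy replicate 1. Their changes were -0.54 ± 0.113 and -0.56 ± 0.168 (edgeR adjusted p = 0.00375 and 0.0244), and -0.31 and -0.39 with the GC trend removed. The call of RRS1 was lost without that replicate, at -0.37, and without 20% O2 wo Doxy replicate 1 or 3 (adjusted p = 0.0721, 0.0598 and 0.0582). MRTO4, a placeholder for the ribosomal stalk protein on pre-60S particles, was at 164, 148 and 137 CPM with Doxy and 108, 104 and 98.7 CPM without. NOP16, also of early 60S particles, was at 89.3, 94.5 and 91.7 CPM with Doxy and 70.9, 73.8 and 69.5 CPM without. NIP7 was at 119.5, 129.8 and 132 CPM with Doxy and 101, 97.7 and 99.4 CPM without. These 3 genes were lower in every library without Doxy, with log2 fold changes of -0.53 ± 0.0753, -0.36 ± 0.0849 and -0.35 ± 0.0575 (edgeR adjusted p = 0.000287, 0.00673 and 0.00073), and NOP16 was not called with the GC trend removed (adjusted p = 0.093). Without 20% O2 + Doxy replicates 1 and 2, the changes of NOP16, RRP1 and RRS1 were -0.38, -0.38 and -0.26. NOP16 and NIP7 share 20.0% and 20.2% of their exonic sequence with genes on the other strand, and RRS1 shares 11.4% with a gene of at most 1 count on its own strand. GNL3 (nucleostemin), a nucleolar GTPase of proliferating and stem cells, was at 207, 226 and 229.9 CPM with Doxy and 198, 204 and 203 CPM without. It was lower in every library without Doxy but did not pass the correction (-0.13, -0.24 to -0.02, edgeR adjusted p = 0.0708). NOP2 was at 2.11, 1.59 and 1.59 CPM with Doxy and 1.57, 1.83 and 1.95 CPM without, within the error of its few counts (0.02, -0.37 to 0.41), and its sign changed with the filter and with the library left out.

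For the small subunit, 5 of 11 factors fell. In the SSU processome, UTP20, a large scaffold, was at 180.1, 186 and 187 CPM with Doxy and 147, 138 and 142 CPM without. WDR43, also known as UTP5, was at 122, 132 and 141 CPM with Doxy and 96.5, 98.7 and 101 CPM without. NOP14 was at 414, 389.8 and 364 CPM with Doxy and 312, 312 and 300.4 CPM without. The groups were apart in all 3, with log2 fold changes of -0.38 ± 0.0455, -0.41 ± 0.0591 and -0.34 ± 0.0684 (edgeR adjusted p = 9.88e-05, 0.000303 and 0.00302). The change of NOP14 was -0.26 without 20% O2 + Doxy replicates 1 and 2. NOP14 shares 17.1% of its exonic sequence with its antisense gene NOP14-AS1. The remaining 3 overlapped between the groups. RRP9, a U3 snoRNP protein, was at 81.1, 66.1 and 59.6 CPM with Doxy and 61.3, 64.4 and 55.8 CPM without (-0.19, -0.41 to 0.03). UTP15 was at 47.7, 52.2 and 52.8 CPM with Doxy and 50.9, 48.1 and 51.5 CPM without (-0.02, -0.23 to 0.19). WDR75 was at 115, 128 and 136 CPM with Doxy and 111, 113 and 119.6 CPM without (-0.14, -0.34 to 0.06). UTP15, WDR43 and WDR75 belong to the same early UTP-A module, so its members did not share a call.

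In late 40S maturation, BYSL (bystin) and TSR1 fell. BYSL was at 88.6, 70.6 and 70.2 CPM with Doxy and 58.6, 56.2 and 54.4 CPM without, and TSR1, a GTPase-like factor of cytoplasmic pre-40S particles, at 264, 274 and 269 CPM with Doxy and 237, 235 and 229 CPM without. The changes were -0.44 ± 0.0902 and -0.20 ± 0.0439 (edgeR adjusted p = 0.00322 and 0.00455), and that of BYSL became -0.28 with the GC trend removed. The change of TSR1 was -0.22 without 20% O2 + Doxy replicates 1 and 2. NOB1, the endonuclease that forms the 3′ end of 18S rRNA, was at 111, 95.05 and 90.4 CPM with Doxy and 86.9, 93.3 and 83.5 CPM without (-0.17, -0.45 to 0.11). LTV1, an adaptor that leaves before the last steps, was at 27.3, 29.5 and 26.2 CPM with Doxy and 25.5, 26.7 and 26.0 CPM without (-0.09, -0.24 to 0.06). RRP12, an export factor, was at 141, 115 and 103 CPM with Doxy and 107, 104 and 98.6 CPM without (-0.21, -0.50 to 0.08). In these 3 genes the groups overlapped. NOB1 and TSR1 share 20.2% and 20.8% of their exonic sequence with genes on the other strand, and LTV1 shares 34.8% with genes of at most 2 counts on its own strand.

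At 3% O2 fewer of the factors passed the test after the same withdrawal. Of the 40 members 7 fell and none rose, at an edgeR adjusted p under 0.05, while over all genes 3.11% fell and 4.2% rose; 17 members had an unadjusted p under 0.05. The median log2 fold change was -0.14, against 0.04 for all tested genes, and 36 of 40 values were below 0. In 15 members every library without Doxy was below every library with Doxy (11.2% of all genes), and in none every one was above (13.4%). The 7 were POLR1B, NOP58, NCL, NOLC1, NOL9, UTP20 and WDR43, each of which also fell at 20% O2. This count depended on the libraries used. It was 14 without 3% O2 + Doxy replicate 3, the library with the strong GC lean (4.13% of all genes), and 1 without 3% O2 wo Doxy replicate 2 (1.25%). It was 2 without 3% O2 + Doxy replicate 2 (1.36%) or 3% O2 wo Doxy replicate 3 (1.82%), 3 without 3% O2 + Doxy replicate 1 (1.58%), and 7 without 3% O2 wo Doxy replicate 1 (1.86%). It was 15 with the GC trend removed (8.66%), 16 with DESeq2 (7.84%), 2 with no filter on low counts (1.0%), and 0 in a fit of the 6 libraries compared alone (0.456%). No member was called higher in any of them.

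**Figure D3:**
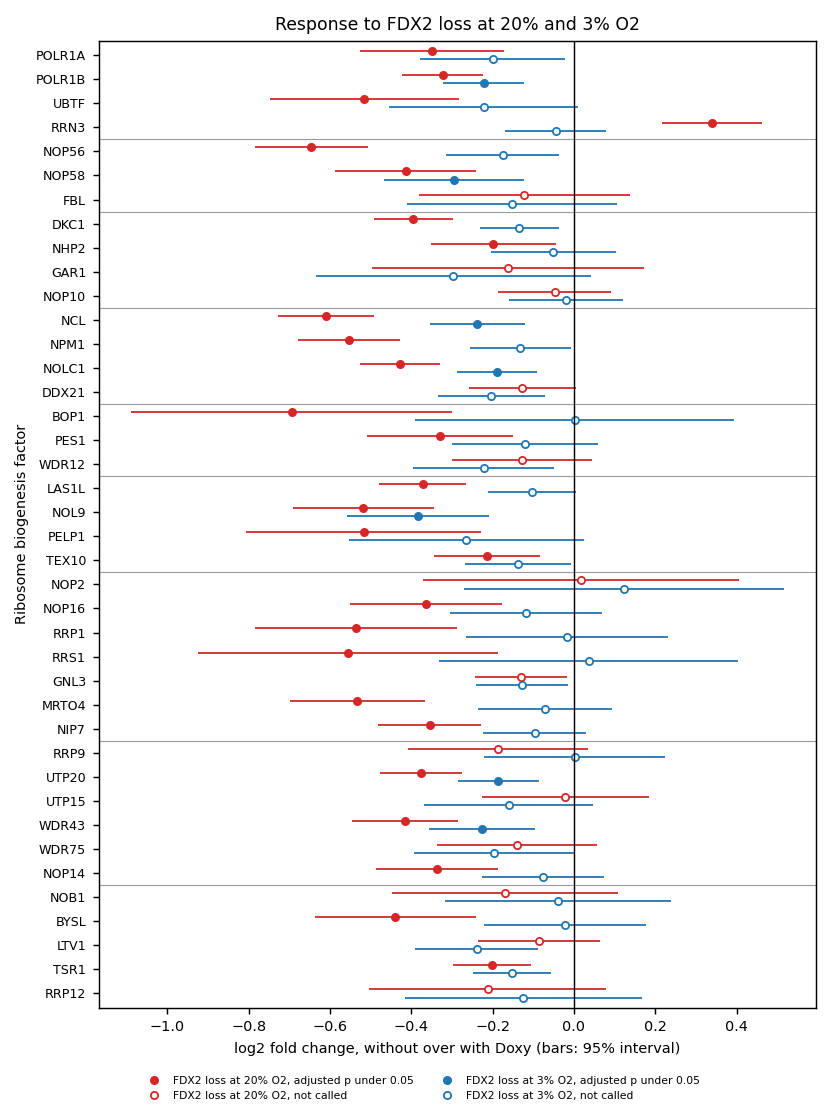
Log2 fold change of each ribosome biogenesis factor without over with Doxy (horizontal axis) at 20% O2 (red) and 3% O2 (blue), in the order of roles used in the text; bars are 95% intervals and filled points have an edgeR adjusted p under 0.05. Most red points lie left of the blue ones, RRN3 lies to the right, and BOP1 and RRS1 have the widest intervals of the factors that fell.

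The values for each role at 3% O2 follow. Of the RNA polymerase I genes, POLR1B was at 85.1, 85.0 and 88.2 CPM with Doxy and 73.8, 72.6 and 75.0 CPM without, apart in every library (-0.22 ± 0.0457, edgeR adjusted p = 0.0151). POLR1A was at 183, 184 and 212 CPM with Doxy and 159, 179 and 167 CPM without, lower in every library but not called (-0.20, -0.38 to -0.02). UBTF was at 153, 158 and 199.98 CPM with Doxy and 141, 155 and 143 CPM without. Its groups overlapped, because replicate 3 with Doxy was the only one that stood clearly above (-0.22, -0.45 to 0.01). RRN3 was at 58.6, 56.6 and 57.6 CPM with Doxy and 58.8, 52.1 and 56.6 CPM without, and no rise was detected (-0.05, -0.17 to 0.08).

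In the snoRNP cores, NOP58 was at 229, 222 and 216 CPM with Doxy and 199.9, 164 and 179.5 CPM without (-0.30 ± 0.0785, edgeR adjusted p = 0.0457). NOP56 was at 419, 415 and 447 CPM with Doxy and 415, 368 and 351 CPM without. Replicate 1 without Doxy reached the level of the cells with Doxy, and the change was not called (-0.18, -0.31 to -0.04). FBL was at 248, 246 and 176 CPM with Doxy and 219, 182 and 202 CPM without (-0.15, -0.41 to 0.11). DKC1 was at 387, 384 and 365 CPM with Doxy and 354, 338 and 341 CPM without, lower in every library, with an edgeR adjusted p of 0.0929 (-0.13, -0.23 to -0.04). NHP2 was at 129.9, 131 and 125 CPM with Doxy and 115, 125 and 132 CPM without (-0.05, -0.20 to 0.10). GAR1 was at 65.6, 71.5 and 45.5 CPM with Doxy and 42.4, 48.7 and 57.4 CPM without. The third library with Doxy was as low as those without, and the interval was wide (-0.30, -0.63 to 0.04). NOP10 was at 70.9, 73.9 and 71.0 CPM with Doxy and 67.0, 70.0 and 75.8 CPM without (-0.02, -0.16 to 0.12), as flat as at 20% O2.

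Of the chaperones, NCL was at 2085, 2093 and 1916 CPM with Doxy and 1824, 1649 and 1693 CPM without, and NOLC1 at 385, 394 and 416 CPM with Doxy and 358, 350.2 and 341 CPM without. Both fell, with log2 fold changes of -0.24 ± 0.0531 and -0.19 ± 0.0444 (edgeR adjusted p = 0.0216 and 0.0268). NPM1 was at 2546, 2599 and 2432 CPM with Doxy and 2493, 2159.5 and 2263 CPM without, and 1 library without Doxy lay among those with Doxy (-0.13, -0.26 to -0.01). DDX21 was at 479.7, 479 and 438 CPM with Doxy and 423, 382 and 407 CPM without. It was lower in every library without Doxy and just missed the threshold (-0.20, -0.34 to -0.07, edgeR adjusted p = 0.0655).

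The PeBoW genes were not called. BOP1 was at 174, 174 and 237 CPM with Doxy and 175, 229 and 182 CPM without, with 1 library of each group standing above the rest, and its near-zero change took either sign under the alternatives (0.0016, -0.39 to 0.39). PES1 was at 229, 226 and 241 CPM with Doxy and 201, 227 and 211 CPM without (-0.12, -0.30 to 0.06). WDR12 was at 115, 111 and 97.6 CPM with Doxy and 98.6, 84.5 and 94.5 CPM without (-0.22, -0.39 to -0.05). In the Rix1 complex, NOL9 had the largest decrease of the list at 3% O2. It was at 67.5, 69.7 and 82.4 CPM with Doxy and 51.8, 59.0 and 57.6 CPM without, apart in every library (-0.38 ± 0.0789, edgeR adjusted p = 0.0153). LAS1L was at 115, 112 and 117 CPM with Doxy and 109, 105 and 106 CPM without, lower in every library but not called (-0.10, -0.21 to 0.0045). PELP1 was at 119, 117 and 158 CPM with Doxy and 108, 119 and 100.2 CPM without (-0.27, -0.55 to 0.02). TEX10 was at 82.8, 87.7 and 84.0 CPM with Doxy and 80.5, 71.4 and 79.3 CPM without (-0.14, -0.27 to -0.01).

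None of the 7 other 60S factors was called at 3% O2. RRP1 was at 75.2, 73.1 and 88.4 CPM with Doxy and 73.6, 86.3 and 74.2 CPM without (-0.02, -0.26 to 0.23). RRS1 was at 92.5, 95.1 and 118 CPM with Doxy and 86.0, 124 and 103 CPM without (0.04, -0.33 to 0.40). Each had its highest value in a GC-leaning library of either group, and the sign of RRS1 depended on the library left out. MRTO4 was at 129.6, 129 and 148 CPM with Doxy and 126, 133 and 128 CPM without (-0.07, -0.24 to 0.09). NOP16 was at 84.7, 82.6 and 78.6 CPM with Doxy and 88.2, 69.4 and 69.2 CPM without (-0.12, -0.30 to 0.07). NIP7 was at 109.5, 112 and 106 CPM with Doxy and 109, 99.5 and 97.6 CPM without (-0.10, -0.22 to 0.03). In these 3 genes the libraries of the conditions were mixed. GNL3 was at 198, 193 and 205 CPM with Doxy and 188, 176 and 181 CPM without, lower in every library by about as much as at 20% O2 (-0.13, -0.24 to -0.01). NOP2 was at 1.52, 1.49 and 1.78 CPM with Doxy and 1.53, 1.94 and 1.75 CPM without (0.12, -0.27 to 0.52).

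Of the small-subunit factors, UTP20 and WDR43 fell at 3% O2. UTP20 was at 173, 165 and 169 CPM with Doxy and 144, 149.9 and 152 CPM without, and WDR43 at 125, 123 and 116 CPM with Doxy and 104, 101 and 107 CPM without. The groups did not overlap (-0.19 ± 0.0456 and -0.23 ± 0.0591, edgeR adjusted p = 0.0326 and 0.0437). The other 4 processome genes overlapped between the groups. RRP9 was at 56.5, 56.7 and 59.5 CPM with Doxy and 56.4, 61.6 and 55.0 CPM without (0.0015, -0.22 to 0.22). UTP15 was at 50.9, 45.1 and 41.9 CPM with Doxy and 45.8, 35.8 and 41.8 CPM without (-0.16, -0.37 to 0.05). WDR75 was at 126, 125 and 104 CPM with Doxy and 109, 94.6 and 106 CPM without (-0.20, -0.39 to 0.00034). UTP15 and WDR75 each had their lowest library with Doxy in replicate 3. NOP14 was at 355, 365 and 421 CPM with Doxy and 356, 371 and 355 CPM without (-0.08, -0.23 to 0.07). In the late 40S group, LTV1 was at 26.4, 27.3 and 23.5 CPM with Doxy and 21.0, 22.5 and 21.9 CPM without, and TSR1 at 263, 256 and 259 CPM with Doxy and 242, 223 and 235 CPM without. Both were lower in every library and close to the threshold (-0.24 and -0.15, edgeR adjusted p = 0.061 and 0.061). NOB1 was at 88.0, 84.6 and 114 CPM with Doxy and 83.2, 106 and 90.0 CPM without (-0.04, -0.32 to 0.24). BYSL was at 68.0, 69.7 and 72.8 CPM with Doxy and 71.8, 72.4 and 63.3 CPM without (-0.02, -0.22 to 0.18). RRP12, again the most scattered of the group together with NOB1, was at 104, 105 and 135 CPM with Doxy and 96.3, 119 and 100.4 CPM without (-0.12, -0.42 to 0.17).

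The response itself was then compared between the oxygen levels, by an interaction contrast in the same model. It was less negative at 3% O2 for 7 members and lower for 1, at an edgeR adjusted p under 0.05, against 3.21% and 4.08% of all tested genes. The members' median difference was 0.17, against 0.05 for all genes. It was above 0 in 32 of the 40 members and below 0 in 8, while 43.8% of all tested genes had a difference below 0. The 7 were NOP56 (0.47 ± 0.0892, edgeR adjusted p = 0.0109), MRTO4 (0.46 ± 0.106, adjusted p = 0.026), NPM1 (0.42 ± 0.0804, adjusted p = 0.0111), NCL (0.37 ± 0.0751, adjusted p = 0.0149), LAS1L (0.27 ± 0.0691, adjusted p = 0.0409), DKC1 (0.26 ± 0.0625, adjusted p = 0.0308) and NOLC1 (0.24 ± 0.0627, adjusted p = 0.0443). RRN3 was the single member with a lower response at 3% O2 (-0.39 ± 0.0797, adjusted p = 0.0164). Larger point differences that did not pass were those of BOP1 (0.70 ± 0.253), RRS1 (0.59 ± 0.237) and RRP1 (0.52 ± 0.159), and the most negative ones after RRN3 were LTV1 (-0.15 ± 0.0967) and UTP15 (-0.14 ± 0.133). For the other members a difference of the responses was not detected, which does not show that they responded alike. The count of members called higher was 11 without 3% O2 + Doxy replicate 3 (7.23% of all genes). It was 7 and 5 without 20% O2 + Doxy replicate 3 and 1 (3.27% and 2.69%). Without any other single library it was between 1 and 4 (1.18% to 3.14%). The lowest count was without 20% O2 wo Doxy replicate 3 (1.18%). RRN3 was not called without any single library of 20% O2 wo Doxy or without 3% O2 + Doxy replicate 2. With the replicate as a block in the fit of all libraries, the calls of MRTO4, DKC1, NOLC1 and LAS1L were lost, and 3 higher (1.37% of all genes) and 1 lower (2.27%) were left. The count was 12 with the GC trend removed (8.73% of all genes). A fit without 20% O2 + Doxy replicates 1 and 2 leaves 1 library in that condition, so its calls are not given. Over the 40 members, the responses at the 2 oxygen levels, which share no library, had a Pearson r of 0.163 and a Spearman rho of 0.0471, given as a description.

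**Figure D4:**
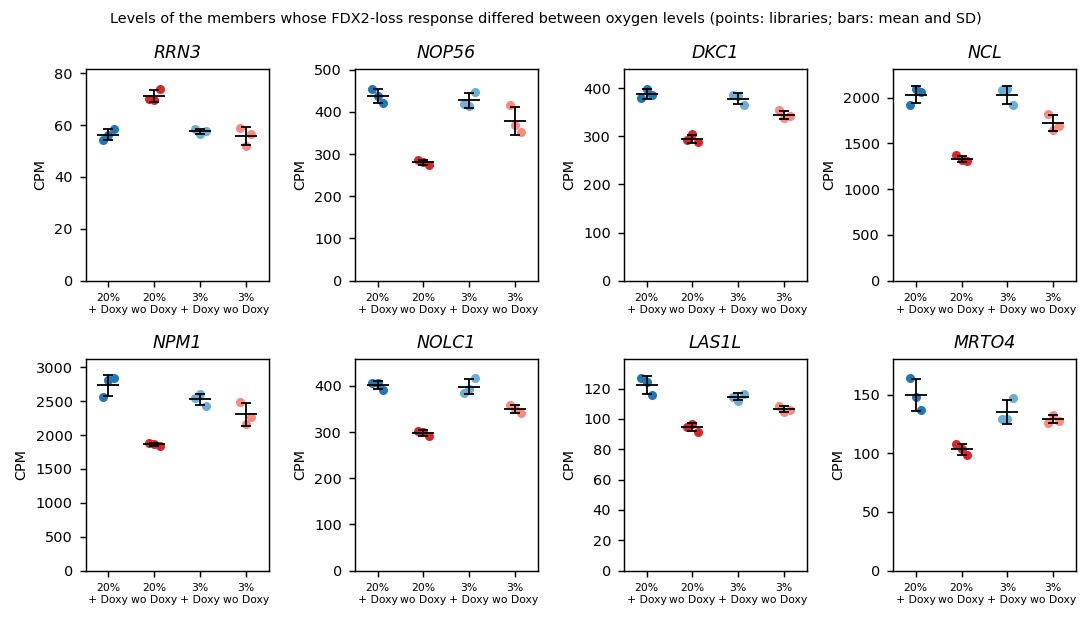
Level in CPM (vertical axes, from 0) of the 8 factors whose response to FDX2 withdrawal differed between 20% and 3% O2; points are libraries, and black bars give the mean and SD of 3. Except for RRN3, the 20% O2 wo Doxy libraries are the lowest of each panel, and the means of 3% O2 wo Doxy lie between them and the means with Doxy; NOP56, for example, has means of 438, 279.9, 427 and 378 CPM.

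With Doxy, no called change was found between the oxygen levels, whose library values are those given above. None of the 40 members passed at an edgeR adjusted p under 0.05 in either direction (1.63% of all genes rose and 0.385% fell), although 5 had an unadjusted p under 0.05. DESeq2 called 2 lower (1.24% of all genes) and the fit with the GC trend removed 3 (2.31%). The fit without the GC-leaning libraries called 1 lower (0.938%). The median was -0.10, against -0.00451 for all genes, and 34 of 40 values were below 0. The lowest were RRP9 (-0.26, -0.48 to -0.04), NIP7 (-0.22, -0.35 to -0.09, edgeR adjusted p = 0.0882) and BOP1 (-0.19, -0.58 to 0.21). The highest were NOL9 (0.07, -0.10 to 0.24), UBTF (0.05, -0.19 to 0.28) and RRN3 (0.03, -0.09 to 0.16), all with intervals across 0. In 8 members, NHP2, DDX21, NOP16, GNL3, NIP7, RRP9, UTP20 and TSR1, every library at 3% O2 was below every library at 20% O2 (6.61% of all genes), and in none was every one above (8.83%).

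Without Doxy, 11 members were higher and 4 lower at 3% than at 20% O2 at an edgeR adjusted p under 0.05, where 13.9% and 11.9% of all genes were. The median was 0.07, and that of all genes was 0.07 too. The 11 were NOP56 (0.43 ± 0.0632), RRP1 (0.38 ± 0.113), NCL (0.37 ± 0.0532), UBTF (0.34 ± 0.106), MRTO4 (0.32 ± 0.0753), NPM1 (0.31 ± 0.0569), BYSL (0.29 ± 0.0904), NOLC1 (0.23 ± 0.0444), NOP14 (0.23 ± 0.0684), DKC1 (0.22 ± 0.0442) and LAS1L (0.17 ± 0.0490). The lower ones were RRN3 (-0.35 ± 0.0564), UTP15 (-0.29 ± 0.0944), LTV1 (-0.26 ± 0.0687) and DDX21 (-0.25 ± 0.0599). BOP1 and RRS1 had larger values but did not pass (0.51 ± 0.179 and 0.49 ± 0.168, edgeR adjusted p = 0.0584 and 0.0531), nor did GAR1 (-0.29 ± 0.153, adjusted p = 0.184). In 17 members every library at 3% O2 was above every library at 20% O2 (27.4% of all genes), and in 8 below (22%). Libraries with the same replicate number deviated together in these conditions, although a pairing is not established. With the replicate as a block in a fit of the 6 libraries, 15 members were higher and 6 lower (2781 and 2300 of 16357 genes). A block in the fit of all 12 gave 7 and 3 (9.76% and 9.21%). The lower counts are near these shares. Removing the GC trend moved the values of 9 of the 15 by over 1.5 times, for example RRP1 to 0.08, BYSL to 0.08 and LAS1L to 0.08, none of which was then called. Leaving out 20% O2 wo Doxy replicate 1 or 3 lowered the count of higher members to 5 (7.67% and 6.79% of all genes), 3% O2 wo Doxy replicate 2 to 6 (7.96%), and 20% O2 wo Doxy replicate 2 to 7 (7.97%). The count of lower members became 1 without 20% O2 wo Doxy replicate 3 (6.62% of all genes). It became 2 without 20% O2 wo Doxy replicate 2 (7.64%) or without 3% O2 wo Doxy replicate 2 or 3 (6.99% and 9.41%).

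The rest of the pathway was read from 118 further biogenesis genes. At 20% O2, 54 of them fell (45.8%) and 4 rose (3.39%) on FDX2 withdrawal, against 17.7% and 17.6% of all genes. Their median was -0.19, so that the decrease was found beyond the 40 as well. By role, 8 of 15 RNA polymerase I genes (53.3%), 21 of 43 small-subunit processome genes (48.8%) and 24 of 52 large-subunit genes (46.15%) fell. Of the late 40S genes 1 of 8 fell (12.5%), which is below the share of all genes. The largest decreases were URB2 (-0.66 ± 0.0877, edgeR adjusted p = 0.000184) and DDX51 (-0.66 ± 0.118, adjusted p = 0.00143), both early 60S factors, and the largest increases NOC3L (0.49 ± 0.0665, adjusted p = 0.00022) and NOP53 (0.35 ± 0.110, adjusted p = 0.0305). At 3% O2, 12 fell (10.2%) and 0 rose, against 3.11% and 4.2% of all genes, with a median of -0.08. Of the 118, 35 had an unadjusted p under 0.05. The decreases were led by UTP3 (-0.40 ± 0.108, edgeR adjusted p = 0.0474) and UTP14A (-0.36 ± 0.0811, adjusted p = 0.0231). The response differed between the oxygen levels in 6 of the 118, 3.39% higher and 1.69% lower, which is near or below the shares of all genes (3.21% and 4.08%). It was higher at 3% O2 in 4, with RRP7A (0.63 ± 0.160, edgeR adjusted p = 0.0405) and IMP4 (0.47 ± 0.118, adjusted p = 0.0384) the largest, and lower in NOC3L (-0.37 ± 0.0942, adjusted p = 0.04) and EFL1 (-0.32 ± 0.0869, adjusted p = 0.0475). Between the oxygen levels, NAF1 was the only one called with Doxy (-0.25 ± 0.0556, edgeR adjusted p = 0.0419). Without Doxy the calls, 11.02% higher and 13.6% lower, were about as frequent as over all genes (13.9% and 11.9%). There 13 were higher, with DDX54 (0.56 ± 0.145, adjusted p = 0.0175) and PPAN (0.47 ± 0.123, adjusted p = 0.018) the largest, and 16 lower, with NOC3L (-0.55 ± 0.0667, adjusted p = 0.000242) and RSL24D1 (-0.51 ± 0.128, adjusted p = 0.0147) the lowest.

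The ribosomal proteins, the partners that these factors assemble onto rRNA, gave no such one-sided count. Of 79 cytosolic ribosomal protein genes, 9 fell (11.4%) and 4 rose (5.06%) at 20% O2, with a median of -0.01. Over all genes 17.7% fell and 17.6% rose. None passed at 3% O2 (edgeR, 4 with an unadjusted p under 0.05), where 3.11% and 4.2% of all genes did, and the median was -0.00978. RPS7 (-0.41 ± 0.0682) and RPL10A (-0.32 ± 0.0437) were the lowest at 20% O2, and RPL22 (0.54 ± 0.0920) and RPL4 (0.27 ± 0.0395) the highest among those called. The 15 snoRNA host genes, mostly noncoding transcripts spliced to release snoRNAs from introns, were more often higher than lower at 20% O2. Of them 7 were higher (46.7%) and 2 lower (13.3%), against 17.6% and 17.7% of all genes, with a median of 0.32. SNHG32 (1.17 ± 0.131, edgeR adjusted p = 5.84e-05) and GAS5 (0.95 ± 0.0866, adjusted p = 1.26e-05) were the highest, and SNHG3 (-0.54 ± 0.0520, adjusted p = 2.02e-05) and SNHG16 (-0.40 ± 0.0545, adjusted p = 0.000242) the lowest. The 7 members that host a snoRNA (NOP56, NOP58, NCL, DKC1, GNL3, WDR43 and TSR1) did not rise: 6 fell and GNL3 was not called. No list was tested as a set, and the members' counts describe these genes only.

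**Figure D5:**
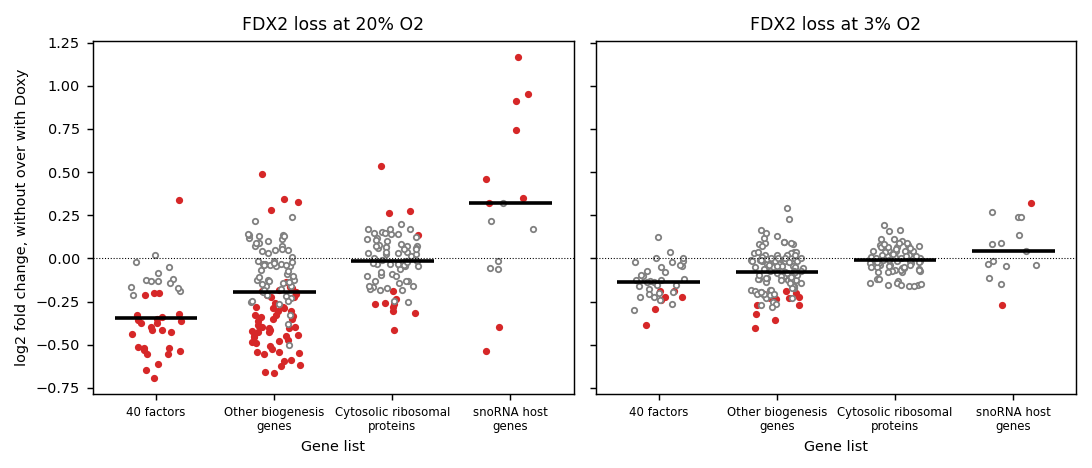
Log2 fold change on FDX2 withdrawal (vertical axis) at 20% O2 (left) and 3% O2 (right) of the 40 factors, 118 other biogenesis genes, 79 ribosomal protein genes and 15 snoRNA host genes; each point is a gene, red points have an edgeR adjusted p under 0.05, and black lines are medians. At 20% O2 the medians are -0.34, -0.19, -0.01 and 0.32.

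Proliferation genes moved in the same libraries. Of 12 such genes, all 12 fell at 20% O2 (median -0.82) and 8 at 3% O2 (median -0.29), against 17.7% and 3.11% of all genes. MKI67, a marker of cycling cells, was at 585, 581 and 568 CPM with Doxy and 224, 222 and 225 CPM without at 20% O2. At 3% O2 it was at 607, 616 and 742 CPM with Doxy and 445, 434 and 428 CPM without. MKI67, like the summed factors, was lowest in 20% O2 wo Doxy and second lowest in 3% O2 wo Doxy, and its decreases, -1.37 ± 0.0680 and -0.59 ± 0.0670 (edgeR adjusted p = 2.95e-07 and 0.000702), were larger than that of any member. The response of MKI67 differed between the oxygen levels by 0.78 ± 0.0946 (edgeR adjusted p = 0.00112). The part of the lower proliferation in the levels of the biogenesis factors was not tested. Cell type markers moved in these libraries too. Of 8 epithelial, carcinoma and mesenchymal markers 4 were tested, and all 4 were below 0 at 20% O2 (median -0.47). KRT18 and the mesenchymal marker VIM were called lower (17.7% of all genes were). After withdrawal at 3% O2, 3 were below 0 and 1 above, with none called (median -0.15). All 4 were called higher at 3% than at 20% O2 without Doxy, and 1 with Doxy (13.9% and 1.63% of all genes were). Of the fibroblast markers, 2 of 5 were tested, and both were below 0 at 20% O2 (COL1A2, at under 1 CPM, called lower). After withdrawal at 3% O2 both were above 0 (0.42 and 0.92), though neither was called. Without Doxy both were called higher at 3% than at 20% O2 (13.9% of all genes were). Of the endothelial markers, 2 of 4 were tested, with KDR called higher at 20% O2 and CDH5 at 3% O2 after FDX2 withdrawal. Their part was not tested either.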

How the data were processed

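RNA-seq of 12 libraries (4 conditions, 3 replicates each, described as biological replicates in the labels) was analysed from 1 table of read counts per Ensembl gene. Per the labels and the study's methods, poly(A) RNA was sequenced on a DNBSEQ-T7 as paired reads of 150 bases, aligned to GRCh38 with STAR, and counted by the authors with featureCounts. The deposited values are these counts, without normalization. Versions, annotation release, strand setting and the treatment of reads that align to several places are not given in the sources used here, so genes with overlapping neighbours or pseudogenes are uncertain. All 58735 identifiers matched GENCODE 29, from which symbols, exonic length and GC content were taken.

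Counts of 24958386 to 34313637 per library were scaled by TMM and filtered with filterByExpr (minimum count 10, minimum total 15), which left 16891 of 32966 genes with a count. A mean per condition was fitted over the 12 libraries (8 residual degrees of freedom, common biological coefficient of variation 16.3%) with the edgeR 4.0.16 quasi-likelihood test in R 4.3.3, with limma 3.58.1. The contrasts were FDX2 withdrawal at each oxygen level, the oxygen level with and without Doxy, and the difference of the withdrawal responses. Adjusted p-values are Benjamini-Hochberg values over all tested genes, a call is an adjusted p under 0.05, intervals are at 95%, and tests are two-sided. The code of the fit was also run on simulated counts with known changes in a single condition and no GC lean. That run does not measure its accuracy on these libraries. No pair of replicates was identical or within sampling noise.

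The members and lists were chosen with earlier results of these data known. All 40 members are given. In the other lists, by rule, the 2 largest called changes in each direction of a contrast are named, with MYC, MDM2, CDKN1A, MKI67, CA9 and FDX2. Same replicate numbers deviated together only in 20% O2 wo Doxy and 3% O2 wo Doxy. Their correlations were 0.247 to 0.363, against -0.432 to 0.0756 for unlike numbers, and every library was closest to its own number. Between 20% O2 + Doxy and 3% O2 + Doxy, unlike numbers reached 0.818. With 3 libraries per condition such a match can arise without a shared batch, and no label states one, so a pairing is not established. Alternatives were DESeq2 1.42.0 size factors, its Wald test, other count filters, the compared libraries alone, the replicate as a block, an offset that removes each library's GC trend (lowess span 0.3), stricter thresholds, each library left out, and 20% O2 + Doxy replicates 1 and 2 left out together. Leaving out the 3 GC-leaning libraries together was chosen after seeing the data. Promoter windows are those of RefSeq on GRCh38.p14. Normalized values and comparisons of the authors were not used here.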

Additional observations from a re-analysis of the deposited data

Results flagged for a closer look

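In 8 of the 40 factors the response to FDX2 withdrawal differed between 3% and 20% O2 by the interaction test of edgeR with Benjamini-Hochberg adjustment over all tested genes. The differences were positive, meaning a smaller decrease at 3% O2, in NOP56 (0.47, adjusted p = 0.0109), MRTO4 (0.46, 0.026), NPM1 (0.42, 0.0111), NCL (0.37, 0.0149), LAS1L (0.27, 0.0409), DKC1 (0.26, 0.0308) and NOLC1 (0.24, 0.0443). The difference was negative in RRN3 (-0.39, 0.0164), the RNA polymerase I initiation factor, which rose at 20% O2 and showed no called change at 3% O2. Over the 12 fits that each left out 1 library, the call was kept in 12 for NOP56, 9 for NPM1, 8 for NCL and for RRN3, 6 for MRTO4, 3 for DKC1 and 2 each for NOLC1 and LAS1L. In all 8 the sign stayed the same in these fits. With the replicate as a block over all libraries, the calls of MRTO4, DKC1, NOLC1 and LAS1L were lost. Leaving out 20% O2 + Doxy replicates 1 and 2 together leaves 1 library in that condition. That fit therefore cannot show whether these calls depend on the 2 libraries.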

How the results depend on the processing

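At 20% O2 the count of members that fell after FDX2 withdrawal was between 23 and 27 when 1 library was left out (12.65% to 16.92% of all genes). It was 3, with 0 higher, at a 1.5-fold minimum. The median was -0.27 without 20% O2 + Doxy replicates 1 and 2 and -0.28 with the GC offset. Over all genes it was -0.0039 and 0.072 in these fits. At 3% O2 the 7 decreases (3.11% of all genes) became 17 without the 3 GC-leaning libraries (7.72%). They were 16 with the DESeq2 Wald test (7.84%) and 15 with the GC offset (8.66%). They were 2 with no filter (1.0%) and 0 with the compared libraries alone (0.456%). At an adjusted p under 0.01 or a 1.5-fold minimum they were 0. When 1 library was left out they ranged from 1 to 14 (1.25% to 4.13%). Between the oxygen levels with Doxy, the 0 lower members became 2 with the Wald test (1.24% of all genes) and 3 with the GC offset (2.31%). There was 1 without the GC-leaning libraries (0.938%). The median of this comparison was -0.037 without 20% O2 + Doxy replicates 1 and 2. Without Doxy, 5 were higher and 1 lower at an adjusted p under 0.01, and 0 and 0 at a 1.5-fold minimum. When 1 library was left out, 5 to 12 were higher (6.8% to 13.74% of all genes) and 1 to 4 lower (6.62% to 10.67%). The 7 higher differences of the response (3.21% of all genes) became 13 without the GC-leaning libraries (9.05%). They were 12 with the Wald test (7.22%) and 12 with the GC offset (8.73%). They were 2 with no filter (0.925%), where 0 were lower, and 0, with 0 lower, at either stricter threshold. The median difference without 20% O2 + Doxy replicates 1 and 2 was 0.085. When 1 library was left out the higher differences ranged from 1 to 11 (1.18% to 7.23%), and the lower ones from 0 to 1 (1.83% to 5.43%). The fits with fewer libraries and with a stricter threshold lose calls by construction; the cause of the others was not tested.

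Values near 0 changed sign. BOP1 at 3% O2 became -0.017 with DESeq2 size factors, -0.031 with no filter, -0.0082 with at least 10 counts in every library, -0.023 with the Wald test, -0.021 with the compared libraries alone and -0.12 with the GC offset, and ranged from -0.13 to 0.16 when 1 library was left out. NOP2 at 20% O2 became -0.018 with no filter and -0.00035 with the Wald test (-0.070 to 0.15 when 1 library was left out). RRS1 at 3% O2 was -0.0037 without the GC-leaning libraries (-0.10 to 0.16). With Doxy, the oxygen value of NOL9 was -0.029 without these libraries (-0.026 to 0.12), those of RRN3 and BOP1 were -0.037 and 0.12 without 20% O2 + Doxy replicates 1 and 2 (-0.0061 to 0.060 and -0.35 to 0.035), and that of UBTF ranged from -0.087 to 0.13.

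With the replicate number as a block, 25 members fell at 20% O2 in the fit of all libraries (14.41% of all genes). In that of the compared libraries 26 fell (19.38%). At 3% O2, where same numbers did not deviate together, 1 and 0 fell (1.46% and 0.0% of all genes), and BOP1 was -0.00055 and -0.020. Between the oxygen levels without Doxy, same numbers did deviate together, but a pairing is not established. There the block gave 7 higher and 3 lower over all libraries and 15 and 6 over the compared ones. With the GC offset added to the latter fit, the block gave 11 and 6. The block left 3 members with a higher difference of the response and 1 with a lower one (1.37% and 2.27% of all genes). No block fit of the compared libraries alone was run for that difference, which uses all of them. Members with few counts (NOP2) or a high GC content (BOP1, RRS1) are the least precise.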

Other observations

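Genes around MYC, whose proteins bind the E-box searched in the promoters, were read from a list of which 10 of 12 genes were tested. At 20% O2, 3 rose and 1 fell after FDX2 withdrawal (17.6% and 17.7% of all genes did), and at 3% O2 none passed (edgeR; 2 at an unadjusted p under 0.05). MYC itself was not called in any comparison: its log2 fold change was -0.10 (95% interval -0.42 to 0.22) at 20% O2 and -0.14 (-0.46 to 0.17) at 3% O2. The MAX dimerisation proteins MXD1 and MXI1, which oppose MYC, had the lowest differences of the response between 3% and 20% O2 among the called genes of the list, -0.97 and -0.77 (edgeR adjusted p = 0.000927 and 0.00105), and MXI1 was the one gene of the list called between the oxygen levels with Doxy (0.46, edgeR adjusted p = 0.00278).

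Of 13 tested genes of the p53 response, which is switched on by faulty ribosome assembly in many cells, 3 rose and 2 fell at 20% O2 (23.1% and 15.4%, near the 17.6% and 17.7% of all genes). At 3% O2, 1 rose and 1 fell (7.69% each, against 4.2% and 3.11% of all genes). MDM2, the ubiquitin ligase that restrains p53, fell at both oxygen levels (-0.35 ± 0.0794 and -0.30 ± 0.0796, edgeR adjusted p = 0.00549 and 0.0451). CDKN1A, which encodes the cell cycle inhibitor p21, was not called (0.39, 95% interval -0.06 to 0.84, and -0.03, -0.48 to 0.42). The list therefore had called genes in both directions. All 5 hypoxia genes were higher at 3% than at 20% O2 with Doxy (1.63% of all genes) and 4 without (13.9%). After FDX2 withdrawal at 3% O2, 3 of them fell (3.11% of all genes did), and the median of the 5 was -0.40.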
